A study of Mus musculus with 13 samples.

Results

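The 45 genes described here encode the extracellular and membrane parts of the Wnt pathway in the mouse. They were taken as a set list by name from 55450 annotated genes, and comprise 19 Wnt ligands, 10 Frizzled receptors, the co-receptors Lrp5 and Lrp6, 10 secreted inhibitors and 4 R-spondins. All 45 were found in the annotation. The list goes by name and uses no measured value, although it was drawn up with earlier results of these data known. What was measured at them was H3K27ac, the acetylation of lysine 27 on histone H3 that marks active promoters and enhancers, as lists of ChIP-seq peaks from 9 cell lines of mouse melanoma.

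Each line was established from a melanoma of a mouse with the NRASQ61K transgene under the tyrosinase promoter (Tyr::NRAS), 1 remaining copy of Cdkn2a and floxed Cdh1 (Cdh1 F/F), the gene of E-cadherin. In the Ecad lines Cdh1 was intact. In the ΔEcad lines it had been deleted by Tyr::CreA, a Cre recombinase driven by the tyrosinase promoter and so active in the melanocyte lineage. The male lines were Ma_1007 and Ma_1181 (Ecad) and Ma_1062 and Ma_1456 (ΔEcad). The female lines were Ma_1014 and Ma_1039 (Ecad), with Ma_1057, Ma_1064 and Ma_1069 (ΔEcad). Both genotypes therefore share the NRAS transgene, Cdkn2a heterozygosity and the floxed allele, no line was treated, and mouse age is not given in the sources used here. The sources used here do not say whether each line came from a separate tumour or mouse. Line and tumour cannot be told apart, and the spread within a group is that between lines.

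Wnt proteins are lipid-modified ligands that bind a Frizzled receptor together with LRP5 or LRP6. Binding stops the destruction of β-catenin, which then enters the nucleus and acts with TCF and LEF factors. Secreted frizzled-related proteins (Sfrp1, Sfrp2, Sfrp4, Sfrp5 and Frzb) and Wif1 bind the ligand itself, Dickkopf proteins such as Dkk1 bind the LRP co-receptor, and R-spondins keep Frizzled receptors on the cell surface. In the melanocyte lineage, Wnt signals induce melanocytes from the neural crest, and E-cadherin holds part of the β-catenin of a cell at its junctions.

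The lists held 20741 to 41663 peaks and covered 29.5 to 67.2 Mb. The female ΔEcad lists covered 29.5 to 39.5 Mb and the others 37.1 to 67.2 Mb, with median peak widths of 943 to 1019 bp and 1059 to 1195 bp. Sequencing depth is unknown, because a peak list holds no read counts. Of 9 melanocyte markers, 7 to 9 had a called promoter in each line. Marker lists of keratinocytes, fibroblasts, endothelial cells and leukocytes had 0 or 1 per line. The Cdh1 promoter had a peak in 0 of the 9 lists and cannot check the genotype. Peaks over Cdh1 covered 1.66 to 3.16 kb in the female ΔEcad lines and 4.45 to 8.79 kb in the others, the male ΔEcad lines included.

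A promoter was called in a line when a peak lay within 1 kb of a transcription start site (TSS) of any annotated transcript of the gene. By this rule 11 of the 45 genes had a called promoter in at least 1 line, 1 of them in all 9 lines and 10 in some, and 34 had none. Receptors and co-receptors made up most of the called genes. Promoters were called for 7 of 10 Frizzled receptors and for both LRP co-receptors, against 1 of 19 Wnt ligands, 1 of 10 secreted inhibitors and 0 of 4 R-spondins. Over all 21951 protein-coding genes, 47.1% were called in no line, 31.8% in 1 to 8 lines and 21.1% in all 9, against 75.6%, 22.2% and 2.22% of the 45 genes.

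**Figure D1:**
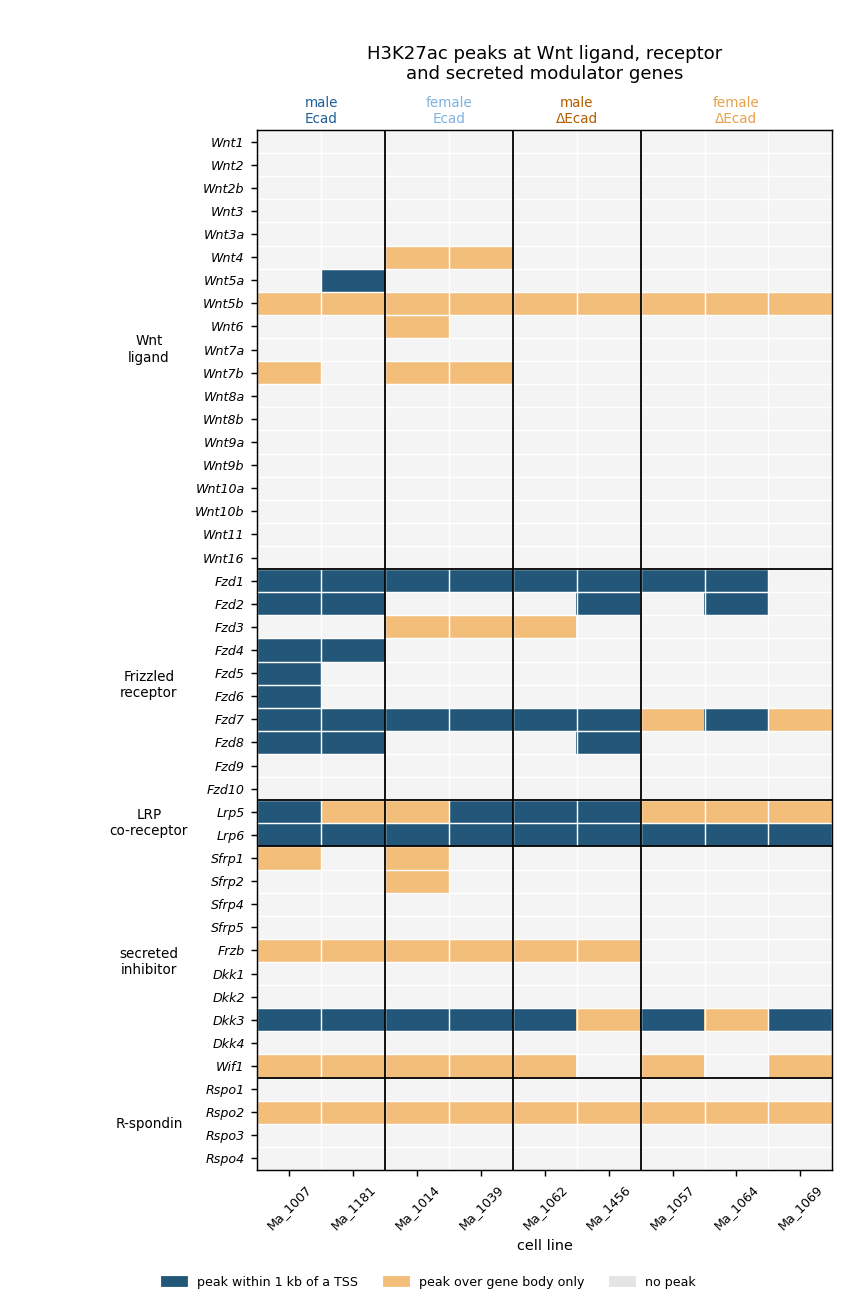
The 45 genes (rows, grouped by role) in the 9 lines (columns, grouped by sex and genotype), with dark cells for a peak within 1 kb of a TSS, orange cells for a peak over the gene body or its 1 kb flanks alone and pale cells for no peak. Lrp6 is dark in all 9 lines, while 18 of the 19 Wnt ligands have no dark cell.

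The number of called promoters among the 45 was 10 in Ma_1007 and 8 in Ma_1181, the male Ecad lines. It was 4 in Ma_1014 and 5 in Ma_1039, the female Ecad lines, and 5 in Ma_1062 and 6 in Ma_1456, the male ΔEcad lines. Of the female ΔEcad lines, Ma_1057 had 3, Ma_1064 had 4 and Ma_1069 had 2. These are 22.2%, 17.8%, 8.89%, 11.1%, 11.1%, 13.3%, 6.67%, 8.89% and 4.44% of the members, against 48.6%, 43.8%, 41.1%, 40.0%, 38.4%, 39.5%, 30.1%, 33.3% and 25.3% of protein-coding genes in the same lists. The share of called members was thus below that of protein-coding genes in all 9 lines, and both shares were lowest in Ma_1069. The mean ± SD of called members was 9 ± 1.41 for the 2 male Ecad lines and 4.5 ± 0.707 for the 2 female ones. For the ΔEcad lines it was 5.5 ± 0.707 in males (n = 2) and 3 ± 1 in females (n = 3), so the female ΔEcad counts reached up to the lowest female Ecad count. Members with a peak over the gene body or its 1 kb flanks numbered 16, 13, 15, 12, 10, 10, 8, 8 and 7 in the same order of lines. These are 35.6%, 28.9%, 33.3%, 26.7%, 22.2%, 22.2%, 17.8%, 17.8% and 15.6% of the members, against 55.6%, 49.9%, 48.9%, 47.7%, 45.6%, 48.5%, 38.9%, 42.3% and 33.8% of protein-coding genes.

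**Figure D2:**
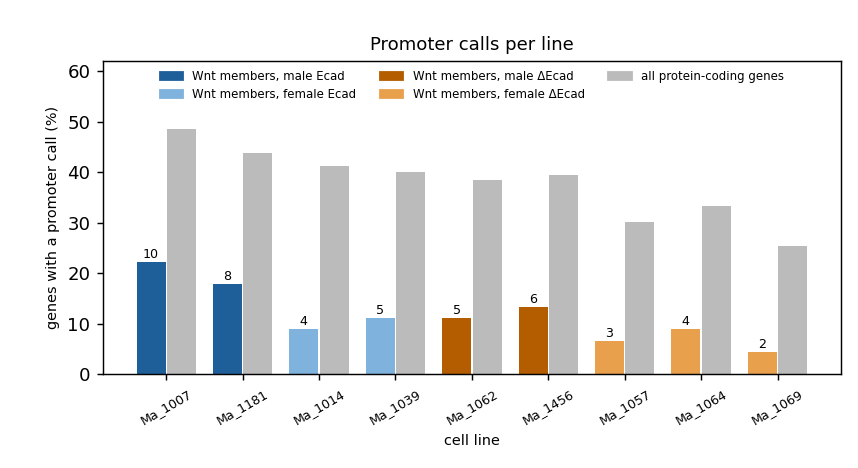
Share of genes with a called promoter (y axis, percent) in each line (x axis), with coloured bars for the 45 Wnt genes and grey bars for all protein-coding genes. The numbers above the coloured bars are the called members, from 10 in Ma_1007 to 2 in Ma_1069, and the grey bar is the taller of the pair in each of the 9 lines.

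Of the Wnt ligands, the promoter of Wnt5a alone was called, in 1 line. Wnt5a, a ligand known for signalling that does not pass through β-catenin, had a peak of 999 bp over its TSS in Ma_1181, with a fold enrichment of 10.3 over the local background, and a further peak of 947 bp within the gene. The 18 ligands with no called promoter were Wnt1, Wnt2, Wnt2b, Wnt3, Wnt3a, Wnt4, Wnt5b, Wnt6, Wnt7a, Wnt7b, Wnt8a, Wnt8b, Wnt9a, Wnt9b, Wnt10a, Wnt10b, Wnt11 and Wnt16. Wnt1 and Wnt3a, the ligands best known for inducing melanocytes from the neural crest, had no peak over the gene body either. A missing peak means that none passed the threshold of the list (every deposited −log10 q was above 5), not that the mark was absent.

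Peaks over the gene body, extended by 1 kb at each end, were found at 4 more ligands. Wnt4 had an exonic peak in Ma_1014 and Ma_1039, the 2 female Ecad lines, and in no other line. Wnt6 had an intronic peak in Ma_1014 that also lies over Gm29539. Wnt7b (chr15:85535437-85582473) had an intronic peak of 381 bp in Ma_1007, 611 bp in Ma_1014 and 390 bp in Ma_1039, and none in Ma_1181 or in the 5 ΔEcad lines. The mean covered length of Wnt7b was 0 bp in ΔEcad and 345.5 ± 254 bp (SD) in Ecad lines (exact permutation test, two-sided, p = 0.0476, adjusted p = 0.310), and the groups overlap, since Ma_1181 was also at 0 bp. Leaving out any 1 line other than Ma_1181 took this exact p above 0.05, to 0.107 without Ma_1007, Ma_1014 or Ma_1039 and to 0.143 without a ΔEcad line.

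Wnt5b was the 1 ligand with peaks in all 9 lines, and most of their length lies at a different gene. The main region, chr6:119477314-119481649, is intronic in Wnt5b (chr6:119432531-119544347) and spans the start of Fbxl14, a gene nested in that intron. Peaks covered 5252 and 2058 bp of Wnt5b in Ma_1007 and Ma_1181, 3620 and 3336 bp in Ma_1014 and Ma_1039, 3061 and 2859 bp in Ma_1062 and Ma_1456, and 936, 1664 and 923 bp in Ma_1057, Ma_1064 and Ma_1069. The 3 female ΔEcad lines had the shortest covered lengths, with no overlap with the other 6. Fold enrichment in the main region was 5.53 to 8.09 in the female ΔEcad lines and 16.6 to 51.2 in the others. Another intronic region, chr6:119482025-119483045, was called in 6 lines and also lies over Fbxl14. A further intronic peak of 284 bp, in Ma_1062 alone, overlaps no other gene. In the main region and at chr6:119482025-119483045, H3K27ac of Wnt5b and of Fbxl14 cannot be told apart. No peak lay within 1 kb of a Wnt5b TSS. The 201 bases around the strongest summit are shown because they carry this shared signal. They lie upstream of Fbxl14, outside every annotated exon, and hold 37 CpG dinucleotides. In this and the other sequences below, capitals mark CpG, the sequence runs 5′ to 3′ on the strand of the named gene, and the build is GRCm38.
Wnt5b intron, chr6:119479291-119479491, minus strand: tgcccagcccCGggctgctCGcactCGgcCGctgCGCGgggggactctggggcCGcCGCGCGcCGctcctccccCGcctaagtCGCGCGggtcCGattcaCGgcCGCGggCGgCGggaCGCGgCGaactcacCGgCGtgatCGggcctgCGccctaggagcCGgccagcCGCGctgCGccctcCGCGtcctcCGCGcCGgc

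The Frizzled receptors differed among themselves in how many lines carried the mark. Fzd1 and Fzd7 were called in 8 and 7 lines, Fzd2 in 4, Fzd8 in 3, Fzd4 in 2, Fzd5 and Fzd6 in 1 each, and Fzd3, Fzd9 and Fzd10 in none. All 7 called receptors were called in Ma_1007, and 5 in Ma_1181. The female Ecad lines had Fzd1 and Fzd7 alone, as did Ma_1062. In Ma_1456 the called receptors were Fzd1, Fzd2, Fzd7 and Fzd8, and in Ma_1064 they were Fzd1, Fzd2 and Fzd7. Ma_1057 had Fzd1, and Ma_1069 had none.

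Fzd1 (chr5:4753839-4758035), a receptor for several Wnts, had 1 region of peaks, which spans its start. Peaks covered 1793 and 2019 bp in Ma_1007 and Ma_1181, 1582 and 1650 bp in Ma_1014 and Ma_1039, 1502 and 1509 bp in Ma_1062 and Ma_1456, 480 and 720 bp in Ma_1057 and Ma_1064, and 0 bp in Ma_1069. The 3 female ΔEcad lines lay below all others, and the Ecad lines lay above all ΔEcad lines. In the 6 other lines the peak ran across the TSS used for the calls, whereas in Ma_1057 and Ma_1064 it ended upstream of it. This depends on the annotation, since the RefSeq start lies 181 bp further upstream and is covered by the peaks of Ma_1057 and Ma_1064. The fold enrichment of the promoter peak was 20.0, 41.8, 17.4, 14.1, 15.5 and 7.09 in the 6 other lines, and 4.55 and 6.03 in Ma_1057 and Ma_1064. The 250 bases upstream of the RefSeq start lie under the peak in all 8 lines with a call. They are shown because Fzd1 is the member whose covered length did not overlap between the genotypes, and they hold 12 CpG dinucleotides.
Fzd1 upstream, chr5:4758217-4758466, minus strand: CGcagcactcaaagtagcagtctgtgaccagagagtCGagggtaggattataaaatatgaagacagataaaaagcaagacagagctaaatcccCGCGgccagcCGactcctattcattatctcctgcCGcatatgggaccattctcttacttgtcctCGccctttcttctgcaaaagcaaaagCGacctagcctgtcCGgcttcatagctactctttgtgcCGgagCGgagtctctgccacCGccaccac

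Fzd7 (chr1:59482424-59486955), the Frizzled receptor best known from stem and cancer cells, was marked at its start and beyond its end, in a region that also overlaps the annotated gene Gm26813. Peaks covered 6532 and 2569 bp in Ma_1007 and Ma_1181, 5286 and 5141 bp in Ma_1014 and Ma_1039, 3376 and 2465 bp in Ma_1062 and Ma_1456, and 1234, 1172 and 811 bp in Ma_1057, Ma_1064 and Ma_1069. Again the female ΔEcad lines did not overlap with the other 6. In Ma_1007 a single peak of 7890 bp spanned the gene and both flanks. The other lines had separate peaks, among them 1 beyond the 3′ end of the gene with a summit 5.46 to 5.68 kb from its start. That downstream peak was present in all 9 lines or, in Ma_1007, part of the long peak. Peaks over the TSS itself were found in the 6 other lines and in 0 of the 3 female ΔEcad lines. The promoter call in Ma_1064 rests on a peak of 479 bp whose summit is 670 bp upstream. Promoter calls were 1 of 3 in female ΔEcad and 6 of 6 in the other lines, a difference of −66.7 percentage points (two-sided p = 0.0833 by Fisher's exact test, 0.391 when adjusted over 10534 genes).

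The remaining Frizzled calls came from few lines. Fzd2 had promoter peaks of 1468 bp in Ma_1007, 295 bp in Ma_1181, 587 bp in Ma_1456 and 740 bp in Ma_1064, each with its summit 397 to 425 bp upstream of the TSS. Fzd8 had peaks of 466 bp in Ma_1007, 728 bp in Ma_1181 and 519 bp in Ma_1456. These 4 and 3 lines come from both genotypes. Fzd4 was called in the male Ecad lines alone, through peaks of 753 bp in Ma_1007 and 283 bp in Ma_1181 that lie upstream, where the neighbouring gene Tmem135 also starts. Fzd5 and Fzd6 were called in Ma_1007, the longest list, and their peaks also overlap the annotated genes Gm38058 and Gm26704. Fzd3, with no promoter call, had an intronic peak of 767 bp in Ma_1014, 1094 bp in Ma_1039 and 1217 bp in Ma_1062.

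**Figure D3:**
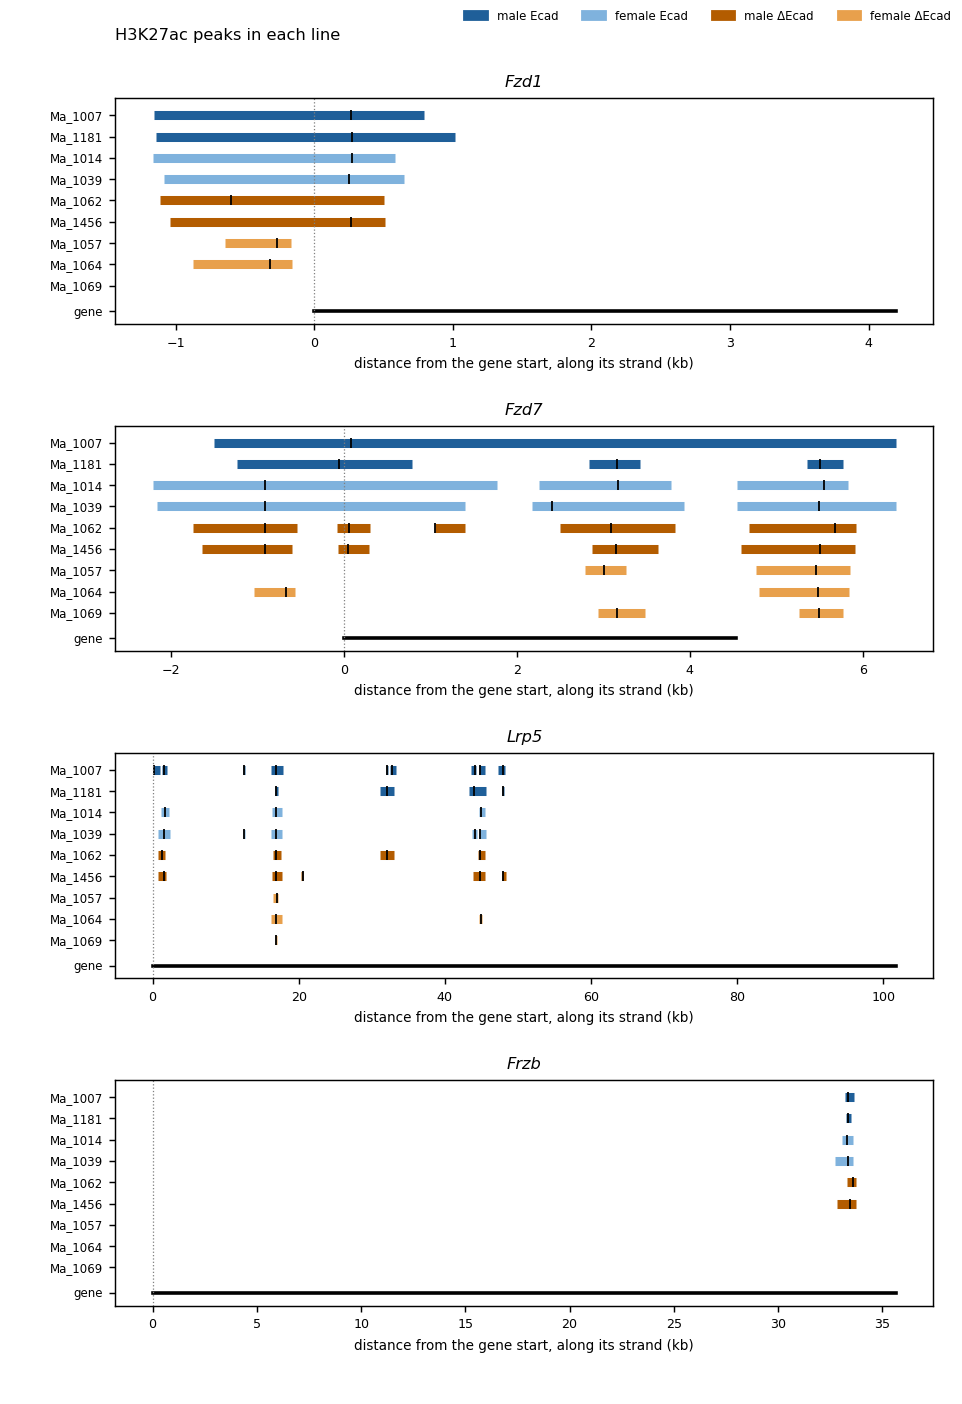
Peaks over Fzd1, Fzd7, Lrp5 and Frzb in each line (bars, coloured by sex and genotype) against the distance from the gene start along its strand (x axis, kb), with black ticks for summits and a black line for the gene. At Fzd7 the bars near the downstream end are present in all 9 lines, while the bars over the start are absent from the 3 female ΔEcad lines. At Frzb the single intronic site has bars in 6 lines.

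The 2 LRP co-receptors are the partners of every Frizzled in signalling through β-catenin. Lrp6 (chr6:134446476-134566965) was the 1 gene of the 45 with a called promoter in all 9 lines. Its start region, chr6:134564604-134567882, had fold enrichments of 8.14 to 43.5 at the strongest peak of each line. A second region present in all 9 lines, chr6:134534543-134540774, lies near an internal start, with 3988 to 6232 bp under peaks in each line and fold enrichments of 17.7 to 71.7 at the strongest peak. Peaks covered 27.8 and 13.8 kb of Lrp6 in the male Ecad lines Ma_1007 and Ma_1181, 9.75 and 9.59 kb in Ma_1014 and Ma_1039, and 10.2 and 10.7 kb in Ma_1062 and Ma_1456. In females without E-cadherin they covered 9.71 kb (Ma_1057), 20.0 kb (Ma_1064) and 6.98 kb (Ma_1069). The ΔEcad lines overlapped with the Ecad lines, and the female ΔEcad lines with the other 6. The female ΔEcad mean of 12233 ± 6873 bp (SD, n = 3) did not differ from that of the other lines, 13637 ± 7089 bp (SD, n = 6), beyond the spread between lines (exact permutation test, p = 0.833).

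Lrp5 (chr19:3584828-3686564) showed less of the mark. Its promoter was called in Ma_1007, Ma_1039, Ma_1062 and Ma_1456, which is 4 of the 6 other lines and 0 of 3 female ΔEcad lines (two-sided p = 0.167 by Fisher's exact test, adjusted p = 0.603). The summit of the called peak was 198 bp from the TSS in Ma_1007 and 1245 to 1581 bp inside the gene in the other 3. Over the whole gene, peaks covered 7083 and 5082 bp in Ma_1007 and Ma_1181, 3195 and 5038 bp in Ma_1014 and Ma_1039, 4932 and 4972 bp in Ma_1062 and Ma_1456, and 585, 1896 and 316 bp in Ma_1057, Ma_1064 and Ma_1069. The lowest of the other lines, Ma_1014, was above the highest female ΔEcad line, Ma_1064. Of 7 regions in Lrp5, 1 was present in all 9 lines, an intronic region with its summit 16.9 kb from the start. An intronic region at chr19:3640879-3643258 was present in the 6 other lines with fold enrichments of 8.94 to 17.8. Of the female ΔEcad lines it was called in Ma_1064 alone, with a fold enrichment of 7.33. The sequence around its strongest summit is shown as the Lrp5 site where the calls differ most between those groups outside the promoter, and holds 4 CpG dinucleotides.
Lrp5 intron, chr19:3642413-3642613, minus strand: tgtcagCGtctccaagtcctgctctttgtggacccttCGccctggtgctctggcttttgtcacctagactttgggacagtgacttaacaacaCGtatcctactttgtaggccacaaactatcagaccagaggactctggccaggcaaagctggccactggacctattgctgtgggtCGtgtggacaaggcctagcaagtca

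Among the secreted inhibitors, Dkk3 alone had a called promoter. Dkk3, a divergent member of the Dickkopf family, was called in 7 lines, all but Ma_1456 and Ma_1064. It also had the longest covered length of all members in 7 lines, all but Ma_1007 and Ma_1064, where Lrp6 was longer. Covered length was 16.7 and 30.9 kb in Ma_1007 and Ma_1181, 17.2 and 21.2 kb in Ma_1014 and Ma_1039, 17.0 and 12.6 kb in Ma_1062 and Ma_1456, and 17.0, 9.40 and 23.9 kb in Ma_1057, Ma_1064 and Ma_1069. The ΔEcad lines overlapped with the Ecad lines, and the female ΔEcad lines with the other 6. An intronic region about its centre, chr7:112134687-112146241, was present in all 9 lines, with 4210 to 11555 bp under peaks in each line and fold enrichments of 33.0 to 81.1 at the strongest peak. Its strongest summit lies 20.4 kb from the start of Dkk3.

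Frzb (chr2:80411970-80447625), also called Sfrp3, binds Wnt ligands outside the cell. It had no promoter call, and 1 intronic region, chr2:80413868-80414903, whose strongest summit was 33.3 kb from the start. Peaks covered 469 and 279 bp in Ma_1007 and Ma_1181, 508 and 871 bp in Ma_1014 and Ma_1039, 435 and 939 bp in Ma_1062 and Ma_1456, and 0 bp in each of the 3 female ΔEcad lines. The site was thus called in all 6 other lines, with fold enrichments of 4.47 to 7.42. In lists cut to the length of the shortest list, the mean difference was −241 bp (exact permutation test, p = 0.5). The sequence at the strongest summit is shown because calls there separated the female ΔEcad lines from the rest, and it holds 0 CpG dinucleotides.
Frzb intron, chr2:80414215-80414415, minus strand: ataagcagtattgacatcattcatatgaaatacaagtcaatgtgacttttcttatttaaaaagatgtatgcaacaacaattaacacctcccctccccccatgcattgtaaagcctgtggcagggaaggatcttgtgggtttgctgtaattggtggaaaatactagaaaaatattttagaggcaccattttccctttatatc

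Wif1 (chr10:121033960-121100650), which takes up Wnt ligands outside the cell, was the 1 member with a longer mean covered length in ΔEcad than in Ecad lines. Peaks covered 1381 and 1156 bp in Ma_1007 and Ma_1181, 1933 and 1346 bp in Ma_1014 and Ma_1039, and 323 and 0 bp in Ma_1062 and Ma_1456. In the female ΔEcad lines they covered 4088 bp in Ma_1057, 0 bp in Ma_1064 and 8806 bp in Ma_1069. So 2 of the 3 female ΔEcad lines were above all other lines and the third had no peak. The means were 4298 ± 4407 bp (SD, n = 3) and 1023 ± 723 bp (SD, n = 6), a difference of 3275 bp (exact permutation test, two-sided, p = 0.0833, adjusted p = 0.264). Intronic regions at chr10:121046161-121047846 and chr10:121062021-121064250 were called in Ma_1057 and Ma_1069 alone, and 2 others, of 955 and 1251 bp, in Ma_1069 alone. A region at chr10:121054285-121056968 was called in 7 lines, and its fold enrichment was 16.2 in Ma_1057, 26.9 in Ma_1069 and 4.13 to 15.6 in the other 5.

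Sfrp1 and Sfrp2, further ligand-binding inhibitors, had intronic peaks in few lines and no promoter call. Sfrp1 was covered over 1999 bp in Ma_1007 and 2056 bp in Ma_1014, and Sfrp2 over 952 bp in Ma_1014. Sfrp4, Sfrp5, Dkk1, Dkk2 and Dkk4 had no peak at the promoter or over the gene body in any line. Dkk1 is the classical inhibitor of the LRP co-receptors.

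The R-spondins Rspo1, Rspo3 and Rspo4 had no peak in any line, and Rspo2 had peaks over its body in all 9. Peaks covered 7695 and 5225 bp of Rspo2 in Ma_1007 and Ma_1181, 292 and 791 bp in Ma_1014 and Ma_1039, 1735 and 973 bp in Ma_1062 and Ma_1456, and 1424, 3741 and 1722 bp in Ma_1057, Ma_1064 and Ma_1069. The male Ecad lines were above all others and the female Ecad lines below all others. Its most shared region, chr15:43072950-43076393, was called in 8 lines, all but Ma_1456, and its strongest summit lies 96.4 kb from the start of the gene.

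**Figure D4:**
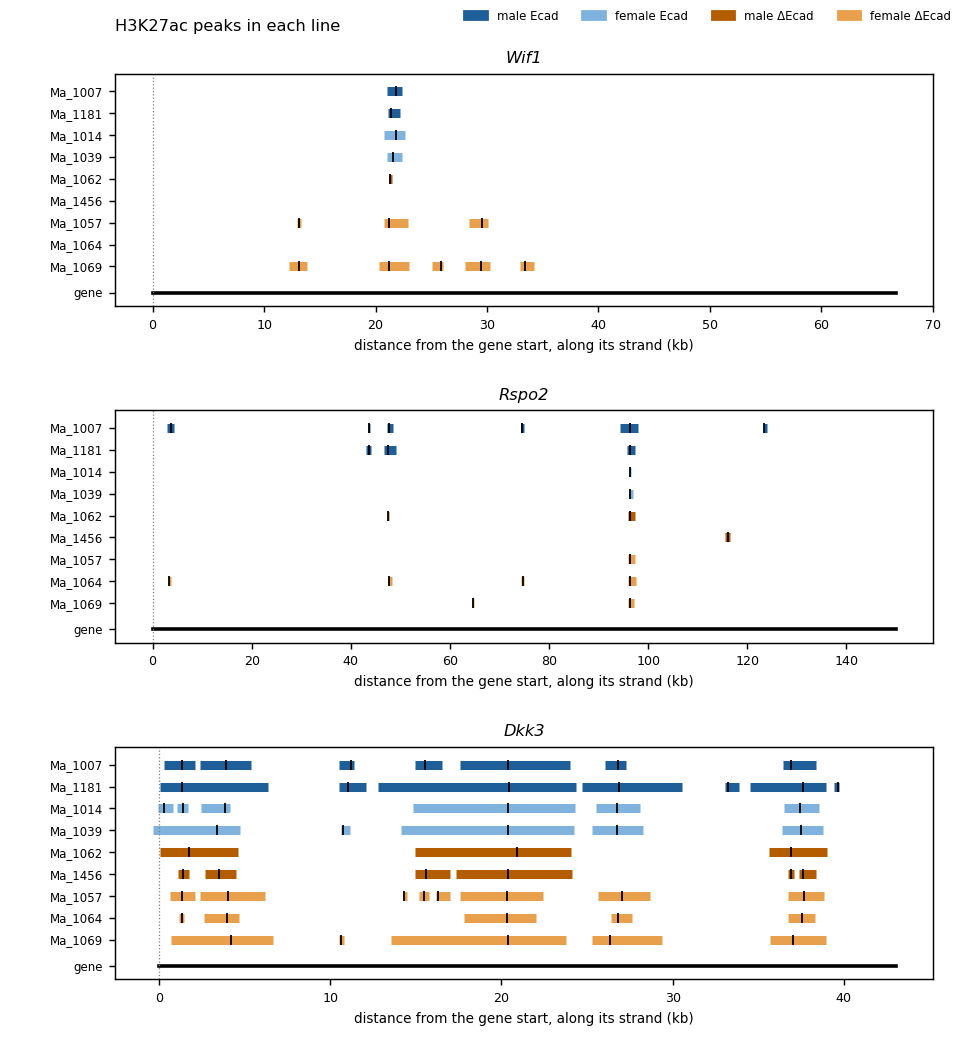
Peaks over Wif1, Rspo2 and Dkk3 in each line (bars, coloured by sex and genotype) against the distance from the gene start along its strand (x axis, kb), with black ticks for summits and a black line for the gene. At Wif1 the sites on either side of the shared site have bars in Ma_1057 and Ma_1069 alone, and at Dkk3 the broad site 20.4 kb from the start has bars in all 9 lines.

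In all, 21 of the 45 genes had a peak over the gene body or its flanks in at least 1 line, 6 of them in all 9 lines (Wnt5b, Fzd7, Lrp5, Lrp6, Dkk3 and Rspo2), and 24 had none. Of protein-coding genes, 61.8% had such a peak in at least 1 line and 27.3% in all 9. The peaks merged into 64 regions, of which 16 were at a promoter, 8 touched an exon and 40 were intronic. Of these regions 8 were present in all 9 lines and 23 in a single line, 9 of them in Ma_1007. The Fzd7 region counts as a promoter region in all 9 lines because the long Ma_1007 peak joins separate peaks. The Fzd7 promoter itself was called in 7 lines. A Dkk3 region likewise counts as a promoter region in 9 lines, while its promoter was called in 7. An Lrp5 region counts so in 5 lines, while its promoter was called in 4.

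To ask whether E-cadherin loss goes with a different mark at these genes, the 5 ΔEcad lines were compared with the 4 Ecad lines. Promoter calls of the 10 members called in 1 to 8 lines gave 0 members with p under 0.05 by Fisher's exact test, against 8.14% of all 10534 genes tested that were called less often in ΔEcad lines at that level and 0.152% called more often. A gene called in 1, 2, 7 or 8 lines cannot reach that level with 5 against 4 lines. Of the 10 members, Fzd2, Fzd8 and Lrp5 alone could, so the count of 0 says nothing about the rest. The shares over all genes include genes of this kind. The lowest adjusted p of a member was 0.695, and 0 genes of all tested passed an adjusted p of 0.05. All 10 members were called in a smaller share of ΔEcad than of Ecad lines, as were 82.3% of all genes tested. By covered length, 3 of 21 members had an unadjusted p under 0.05 (exact permutation test, two-sided), namely Fzd1, Fzd7 and Wnt7b, all with the shorter mean in ΔEcad lines. Of all 20153 genes with a peak, 15.1% were below 0.05 with the shorter mean in ΔEcad lines and 0.218% with the longer. The share of the members, 3 of 21, was therefore close to the background. The mean covered length of Fzd1 was 842 ± 659 bp (SD, n = 5) in ΔEcad and 1761 ± 193 bp (SD, n = 4) in Ecad lines (exact p = 0.0397, adjusted p = 0.310), with no overlap between the genotypes, as for 5.91% of all genes with a peak. That of Fzd7 was 1812 ± 1074 bp in ΔEcad and 4882 ± 1664 bp in Ecad lines (exact p = 0.0317, adjusted p = 0.302). These differences were not past the threshold once adjusted over all genes. The median difference was −348 bp over the 21 members and −308.6 bp over all genes with a peak.

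The female ΔEcad lines, which the study set apart, were then compared with the other 6. By promoter calls 0 of 10 members had p under 0.05, against 11.6% of all genes tested with fewer calls in female ΔEcad lines and 0.579% with more. With 3 against 6 lines too, a gene called in 1, 2, 7 or 8 lines cannot reach that level by Fisher's exact test. Again Fzd2, Fzd8 and Lrp5 alone could, and the count says nothing about the other members. By covered length 5 of 21 members had p under 0.05, all with the shorter mean in female ΔEcad lines, against 21.5% of all genes with a peak with the shorter mean and 1.54% with the longer. They were Wnt5b, Fzd1, Fzd7, Lrp5 and Frzb, and in each the female ΔEcad lines did not overlap with the others, as for 17.9% of all genes with a peak. The Wnt5b regions called in female ΔEcad lines are those where its H3K27ac and that of Fbxl14 cannot be told apart. The count of 5 in 21 was again close to the background. Mean covered length in the 3 female ΔEcad and the 6 other lines was 400.0 ± 367 and 1676 ± 199.5 bp (SD) for Fzd1, a difference of −1276 bp. For Lrp5 it was 932 ± 845 and 5050.3 ± 1233 bp, a difference of −4118 bp. For Wnt5b it was 1174 ± 424 and 3364 ± 1066 bp, a difference of −2190.0 bp, and for Frzb it was 0 and 583.5 ± 262 bp. Each of these 4 had an exact p of 0.0119, which is the smallest that 3 against 6 lines allow, and an adjusted p of 0.101. For Fzd7 it was 1072 ± 228 and 4228 ± 1664 bp (exact p = 0.0238, adjusted p = 0.144). No gene of all tested passed an adjusted p of 0.05 by this exact permutation test, while 4326 had an unadjusted p under 0.05 with the shorter and 310 with the longer mean. The median difference was −395.5 bp over the 21 members and −409 bp over all genes with a peak.

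The lists with the least covered length were those of the 3 female ΔEcad lines and Ma_1062, so list length moved with this comparison. As a share of the total length covered by each list, the same 5 of 21 members had an unadjusted p under 0.05 with the lower mean in female ΔEcad lines, from 0.0119 to 0.0238 by the exact permutation test, against 11.0% of all genes with a peak with the lower mean and 5.03% with the higher. On this scale the share of members was above the background, and that excess was not tested. The lowest adjusted p of a member by this test was 0.166, and 0 genes of all tested passed 0.05. The share for Lrp5 was 25.3 ± 19.9 in female ΔEcad and 108 ± 21.9 in the other lines, in bp per Mb covered. Between ΔEcad and Ecad lines this scale left 2 members, Fzd7 and Wnt7b, with an unadjusted p under 0.05, against 7.37% of all genes with the lower mean and 2.00% with the higher, and Fzd1 had an exact p of 0.119.

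**Figure D5:**
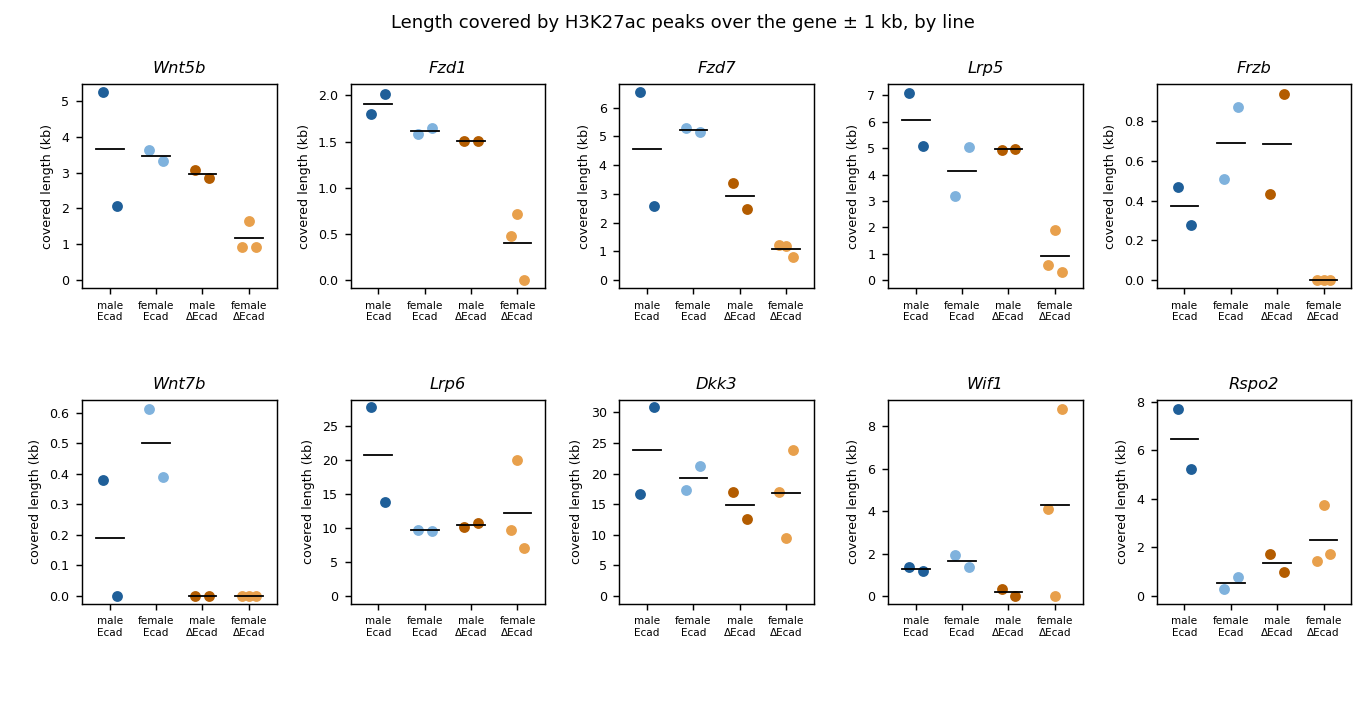
Length covered by peaks over the gene and 1 kb on each side (y axes, kb, each from 0) for 10 members in the 4 groups (x axes), with 1 point per line and a black bar for the group mean. The 3 female ΔEcad points lie below all others for Wnt5b, Fzd1, Fzd7, Lrp5 and Frzb, and 2 of them lie above all others for Wif1.

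Within each sex the groups are too small for a test at 0.05, since the smallest exact p is 0.1 in females (3 against 2) and 0.333 in males (2 against 2). In females, 12 of the 21 members had the shorter mean covered length in ΔEcad lines, 4 the longer, and 5 had no peak in a female line. For 8 of the 16 members with a peak in a female line, the female ΔEcad lines lay below both female Ecad lines with no overlap (Wnt4, Wnt5b, Wnt7b, Fzd1, Fzd3, Fzd7, Lrp5 and Frzb), against 43.7% of all 17564 genes with a peak in a female line, and for Rspo2 they lay above, against 6.13%. In males, 16 members had the shorter mean in ΔEcad lines and 2 the longer. For 6 of the 18 members with a peak in a male line, the male ΔEcad lines lay below both male Ecad lines with no overlap (Fzd1, Fzd4, Lrp5, Lrp6, Wif1 and Rspo2), against 26.5% of all 19125 genes with a peak in a male line, and for 0 members they lay above, against 6.03%. Fzd1 and Lrp5 were thus lower without overlap in both sexes, with differences in means of −1216 and −3184 bp in females and −400.5 and −1130.5 bp in males. The share of all genes lower without overlap in both sexes was not counted, so these 2 cannot be set against a background. The test of the difference between the sexes gave an exact p under 0.05 for 1 of the 21 members, Frzb, against 6.30% of all genes with a peak, and Rspo2 alone had opposite directions without overlap, against 4.49%.

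The promoters themselves were compared by sequence where the RefSeq table holds them, which was the case for 29 of the 45 members and 16522 protein-coding genes (1 promoter per gene, 250 bases before to 50 after the start). The ratio of observed to expected CpG had a median of 0.810 over the 29 members and 0.602 over all protein-coding genes, and it was over 0.6 in 82.8% and 50.1% of them. Among genes called in no line, the median was 0.818 for the 25 members and 0.251 for 7426 protein-coding genes. Unmarked Wnt ligand promoters with a high ratio included those of Wnt11 at 1.18, Wnt9a at 1.12, Wnt5b at 1.06 and Wnt4 at 0.977. The letters CTTTGAA or CTTTGAT, on either strand, a core sequence of TCF and LEF sites, were found in 2 of the 29 member promoters (Dkk1 and Wnt11), or 6.90%, and in 7.67% of protein-coding promoters. None of the 4 stretches printed above holds these letters. No promoter sequence was used here for Dkk3, Dkk4, Fzd2, Fzd3, Fzd6, Fzd8, Lrp5, Lrp6, Rspo2, Rspo3, Sfrp1, Sfrp4, Wnt5a, Wnt7b, Wnt8a and Wnt10a.

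The other genes of the pathway were taken from a list of 37. Of the release factors, Wls, which carries Wnt ligands to the cell surface, had a called promoter in all 9 lines, and Porcn, the acyltransferase that modifies them, in none. Of 10 genes of the cytoplasmic relay (such as Dvl2, Apc, Axin2 and Gsk3b) 8 were called in all 9 lines and the other 2 in some. Of 5 R-spondin receptors and their ubiquitin ligases 4 were called in some lines, with the receptors Lgr4 and Lgr6 in 7 lines each and Lgr5 in 4. Of 4 alternative Wnt receptors 3 were called in 1 line each, and of 16 other extracellular modulators 8 were called in some lines and 8 in none. In the comparison of female ΔEcad with the other lines, 3 of 32 of these genes with a peak had an unadjusted p under 0.05 with the shorter covered length (Porcn, Dvl2 and Gsk3a) and 2 with the longer, against 21.5% and 1.54% of all genes with a peak. The last were Znrf3, a ligase that removes Frizzled receptors from the cell surface, with 12736 ± 3603 against 4774 ± 4641 bp (SD, exact permutation p = 0.0357, adjusted p = 0.180), and Ptk7, a receptor-like protein, with 1980 ± 1139 against 281 ± 688 bp (exact permutation p = 0.0238, adjusted p = 0.144). The groups overlapped for both. Znrf3 had 12.815 kb in Ma_1007 and 9.015 kb in Ma_1064, and Ptk7 had 1.686 kb in Ma_1014 and 0.681 kb in Ma_1064. Between ΔEcad and Ecad lines 4 of 32 had an unadjusted exact p under 0.05 with the shorter covered length and 0 with the longer, against 15.1% and 0.218% of all genes with a peak. By promoter calls 1 of 17 had p under 0.05, against 8.14% of all genes tested that were called less often in ΔEcad lines at that level. It was Reck, called in 3 of 4 Ecad and 0 of 5 ΔEcad lines (Fisher's exact p = 0.0476, adjusted p = 0.575). By adjusted p, 0 of these genes passed 0.05 in either comparison.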

How the data were processed

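H3K27ac ChIP-seq peak lists of 9 mouse melanoma lines were used, 1 list per line; 4 input libraries were not analysed here. The authors aligned paired-end reads to GRCm38 (mm10). The submitters' processing notes name Bowtie2 2.4.5, MACS2 2.2.7.1 and deepTools 3.5.1.0.0. Peak caller settings, and which input served which list, are not given in the sources used here. The deposited columns hold a score (a rounded form of the −log10 q), a fold enrichment (a ratio), −log10 values of p and q, and the summit offset in bp. The lists hold no counts, so depth is unknown and no counting interval can be given. Deeper sequencing or a better precipitation can lengthen a list.

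Genes and starts were those of GENCODE release M21 (55450 genes, 141767 transcripts). A promoter was called with a peak within 1 kb of a TSS. Covered length was the length in bp under peaks over the gene body extended by 1 kb at each end. Peaks of all lists that overlapped were merged into regions. Promoter calls were compared by Fisher's exact test over all genes called in 1 to 8 lines, and covered length by an exact two-sided permutation test over all genes with a peak. That p is the share of all splits of the lines with an absolute difference in means at least as large. P-values were adjusted by Benjamini-Hochberg over all genes tested. Lines were the replicates. The members, lists and tests were chosen with earlier results of these data known. All members were accounted for. Values in each line were given for members whose calls or covered length separated the groups, and sequences for the 4 with the smallest p. Those of Lrp6, Dkk3, Wif1, Rspo2 and members with peaks in few lines were added after they were seen. Alternatives were TSS windows of 500 and 2500 bp, flanks of 0 and 10 kb, a −log10 q of at least 10, lists cut to equal length, summits within the window, starts of protein-coding transcripts, the number of peaks and leaving out each line. Covered length as a share of the list was added after seeing the data. Scripts (Python 3.11.15, pandas 2.3.3, scipy 1.17.1) were tested on simulated data. Sequences came from the GRCm38.p6 genome and the RefSeq promoter table of that build.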

Additional observations from a re-analysis of the deposited data

Results flagged for a closer look

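Within groups of 4 to 6 lines, 3 of 30 checks for a line far from the rest picked out a value, where the nominal rate is about 1 in 20. That rate was not tested for covered lengths, and the groups checked share lines, so no excess is shown. Of the ΔEcad lines, Ma_1064 stood apart with 20.011 kb of Lrp6 covered by peaks and with 3.741 kb of Rspo2. Of the 6 lines other than female ΔEcad, Ma_1007 stood apart with 27.763 kb of Lrp6. Ma_1007 also has the longest list.

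The difference in covered length between ΔEcad and Ecad lines was compared between females and males for the 21 members with a peak, with sex labels permuted within genotype. For Frzb it was −689.5 bp in females and 313 bp in males, a difference of −1002.5 bp (exact permutation p = 0.0167, the smallest that 60 permutations allow, adjusted p = 0.410). It was the 1 member under 0.05, against 6.30% of all genes with a peak. For Rspo2 the difference was 1754 bp in females and −5106 bp in males, that is 6860 bp apart, and in each sex the 2 genotypes did not overlap. By the exact permutation test this difference had p = 0.1 and an adjusted p of 0.666, and 4.49% of all genes with a peak had such opposite directions without overlap.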

How the results depend on the processing

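No paired analysis was made, because the labels pair no line of a group with a line of another group. With a TSS window of 500 bp, the members with p under 0.05 by promoter calls were 1 between ΔEcad and Ecad lines (Dkk3) and 2 between female ΔEcad and the other lines (Fzd7 and Dkk3), all with fewer calls, in place of 0 and 0, against 8.96% and 12.4% of all genes tested. Female ΔEcad against the other lines also gave 1 with a window of 2500 bp (Lrp5, against 10.4% of all genes tested) and 1 in lists of equal length (Fzd7, against 9.55%), and 0 to 1 when a line was left out. Calls of the Fzd7 promoter then separated the groups fully, with Fisher's exact p = 0.0119 at 500 bp and at equal length and p = 0.0357 without Ma_1064.

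By covered length between ΔEcad and Ecad lines, flanks of 10 kb gave 5 members (14.7% of all genes) and the number of peaks 1 (Wnt7b, 5.85%), in place of 3, and leaving out a line gave 1 to 4. The count was 1 (Fzd1) without Ma_1007, Ma_1456, Ma_1057, Ma_1064 or Ma_1069. The number of peaks over Fzd7 reversed, with a difference of 0.5 peaks. Female ΔEcad against the other lines gave 2 by the number of peaks (Lrp5 and Frzb, 6.31%), in place of 5, and 2 to 5 when a line was left out, with 2 (Fzd1 and Lrp5) without Ma_1057 or Ma_1069. With 2 against 6 lines the smallest exact p is 0.0357. Without Ma_1064 the count was 4, among them Wif1 with the longer mean. The share of all genes was not counted with a line left out. These counts, and those of promoter calls with a line left out, therefore cannot be set against a background. For single genes, the exact p of Fzd7 between ΔEcad and Ecad lines was 0.0536 to 0.0571 without Ma_1007, Ma_1014, Ma_1456 or any female ΔEcad line. Between female ΔEcad and the other lines it was 0.0536 to 0.107 without Ma_1039 or any female ΔEcad line, that of Frzb 0.0536 to 0.0714 without Ma_1014 or any female ΔEcad line, and that of Wnt5b 0.0714 without Ma_1057 or Ma_1069. Fzd1 and Lrp5 kept p under 0.05 whichever line was left out. The cause of these changes was not tested. The remaining settings changed these counts by at most 1. The unknown depth limits what a missing peak can show.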

Other observations

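Some modulators outside the 45 genes had peaks in Ma_1057 and Ma_1069, the lines in which Wif1 was most covered, and these were chosen after their values were seen. The promoters of Apcdd1, a membrane inhibitor of Wnt signalling, and Ndp, which encodes the Frizzled-4 ligand norrin, were called in these 2 lines alone. Ndp was covered over 3.06 kb in Ma_1057 and 2.58 kb in Ma_1069, and had no peak in the other 7 lines. Gpc4, a cell-surface proteoglycan, had peaks over its body in the same 2 lines alone, covering 0.801 and 2.95 kb. Apcdd1 was covered over 1.07 and 2.75 kb there and over 0.294 kb in Ma_1181. Ptprc, a leukocyte marker outside the Wnt pathway, also had peaks over its body in Ma_1057 (0.764 kb) and Ma_1069 (1.82 kb) alone. How many of all genes share this pattern was not counted, so it cannot be called particular to Wnt modulators.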
